A study of Mus musculus with 6 samples.

Results

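Polycomb proteins keep genes silent by marking their chromatin. Polycomb repressive complex 2 (PRC2) methylates lysine 27 of histone H3 through EZH2 or its paralog EZH1, held in a core with EED and SUZ12, and JARID2 helps to bring the complex to its targets. Polycomb repressive complex 1 (PRC1), which in one form contains BMI1, ubiquitinates histone H2A. A well studied target in mouse islets is the Ink4a-Arf locus, where Cdkn2a encodes the cell-cycle inhibitor p16Ink4a and, from another first exon, the p53 activator p19Arf, while the neighbouring Cdkn2b encodes the inhibitor p15Ink4b. In mice, signalling through PDGF receptor alpha is known to maintain Ezh2 in young beta cells, and with age Ezh2 declines while p16Ink4a accumulates and beta-cell replication slows.

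The 8 genes described are Ezh1, Ezh2, Eed, Suz12, Jarid2, Bmi1, Cdkn2a and Cdkn2b, chosen by name from 55401 gene identifiers in the count table. Their levels were set side by side in 3 KO libraries, of genotype Pdgfra fl/fl Pdx1-Cre+, and 3 control libraries, of genotype Pdgfra fl/fl Pdx1-Cre-. Both groups thus carry the floxed alleles, and every library was made from islets of C57BL/6 males at roughly 20 weeks of age. The Pdx1 promoter drives Cre in the pancreatic lineage. A group with Cre but intact Pdgfra was not analysed here, so Cre and the deletion cannot be told apart. In the deposited counts the KO column names carry a suffix that the control names lack and the labels do not explain. Whatever that suffix marks cannot be told apart from genotype either. The labels number the male mice samples within a group but do not state whether each is a single animal, and the spread behind each p-value may therefore be technical.

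The KO libraries held 18247741 to 25039394 counts and the control libraries 15026094 to 25299689. Pdgfra itself stood at 3.73, 1.56 and 4.76 CPM in KO 1, 2 and 3 and at 3.37, 5.13 and 3.82 CPM in controls 1, 2 and 3 (edgeR adjusted p = 0.869), and reads summed over all its exons give no check of an exon deletion. CPM are counts per 1000000, scaled by TMM library factors. The labelled cell type is beta cell, yet 22 acinar marker genes took 26.5 ± 7.65% of counts in KO and 32.8 ± 9.28% in controls (SD, n = 3 each), next to 10.6 ± 1.13% and 10.2 ± 3.16% for Ins1 and Ins2. A ribosomal RNA locus took 5.36, 12.6 and 18.5% of counts in KO 1, 2 and 3, against 3.32 to 4.51% in controls. As a covariate below, its level therefore cannot be fully told apart from genotype. By chi-square over the counts of all tested genes, in which abundant genes weigh most, KO 3 stood farthest from the controls. KO 2 had the lowest sum over 11 fibroblast and stellate markers, 46.6 CPM against 151 to 299 CPM in the other 5 libraries. In whole islets, fewer cells of a type and less RNA per cell cannot be told apart.

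In KO islets 0 of the 7 members that could be tested passed an adjusted p of 0.05 against controls. Of the 14212 tested genes 0.0704% passed, 0.00704% with higher and 0.0633% with lower values in KO. The other member, Cdkn2a, had too few counts for the test. At an unadjusted p under 0.05 there were 2 of the 7, Jarid2 with higher and Eed with lower values in KO, where 7.37% of all tested genes reached that level. Jarid2 was higher in each KO library than in any control and stood at rank 78 of all tested genes by p. Eed and Suz12 were lower in each KO library than in any control, by smaller amounts. The groups thus did not overlap in 3 of the 7, as in 13.9% of all tested genes, 7.94% with KO higher and 5.94% with KO lower. Ezh2 and Cdkn2a, of the axis from PDGF receptor to p16Ink4a, and the neighbouring Cdkn2b overlapped between the groups.

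The sequences that follow show why the Cdkn2a count cannot be assigned to p16Ink4a or p19Arf. Both transcripts splice their own first exon to the same exon 2, on the minus strand of chromosome 4 (GRCm38, sequence from GENCODE vM21 transcripts). The last 24 bases of each first exon are in lower case and the first 36 bases of the shared exon 2 (chr4:89276950-89276985) in capitals.
p16Ink4a: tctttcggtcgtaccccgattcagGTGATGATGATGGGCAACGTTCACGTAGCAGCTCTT
p19Arf: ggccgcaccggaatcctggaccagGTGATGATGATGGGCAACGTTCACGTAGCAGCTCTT
The coding part of the p16Ink4a first exon has 126 bases, so exon 2 begins at codon position 1, and that of the p19Arf first exon has 190, so exon 2 begins at codon position 2. The same exon 2 is therefore read in another frame in each transcript. The first exons lie 12.5 kb apart and are 207 and 320 bases long, 45.0% of the 1172 bases over which the table sums reads for Cdkn2a.

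E2F factors, which drive genes of the G1 to S transition, are known to act on Ezh2, so the members' promoters were searched for E2F motifs. The motifs were TTTGGCGC, TTTCCCGC, TTTCGCGC and TTTGCCGC on both strands, which do not overlap each other in the hits shown. A window ran from 250 bases before to 50 after a gene's start (RefSeq, GRCm38.p6), and the 8 members had 10 such windows. A motif was found in 3 of the 10, and in 2.26% of all 32851 windows. Each hit is given with the motif in capitals.
Ezh2 (chr6:47595009-47595038, minus strand): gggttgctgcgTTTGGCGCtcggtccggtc
Suz12 (chr11:79992876-79992905, plus strand): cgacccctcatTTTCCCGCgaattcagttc
Cdkn2a, p19Arf start (chr4:89294700-89294729, minus strand): ctctgggaagcTTTCCCGCgcgactgggga
The Ezh2 motif begins at base 4 of the transcript, that of Suz12 219 bases before the start and that of Cdkn2a 99 bases before the p19Arf start. A match of letters is a description and was not tied to binding by these data.

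**Figure D1:**
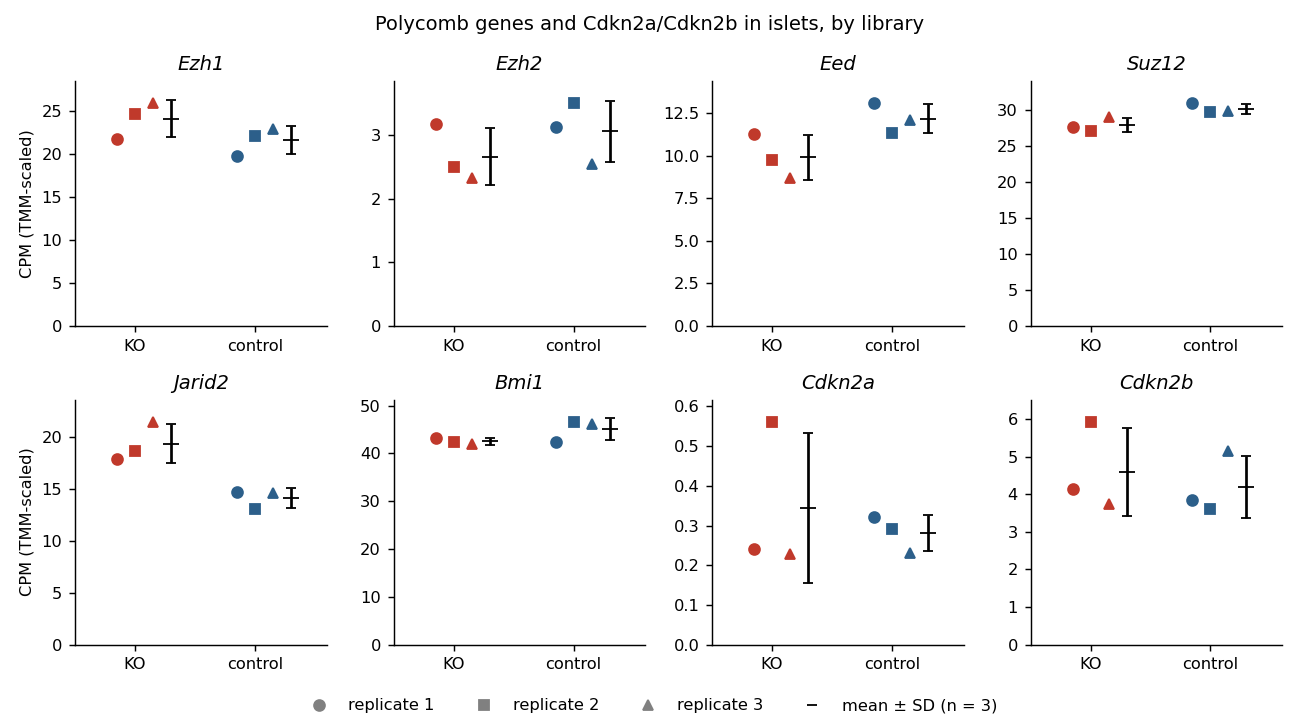
CPM of the 8 genes in each library, with KO left of control in every panel. Points are libraries, marked by replicate number, and bars are the mean ± SD of 3. Jarid2 is the gene whose KO points all lie clearly above the controls, at 17.9 to 21.5 CPM, and the KO point of replicate 2 stands out in Cdkn2a and Cdkn2b.

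The catalytic subunits differed in abundance far more than between groups. Ezh1, the PRC2 methyltransferase typical of resting cells (ENSMUSG00000006920.14, chromosome 11, 101191115 to 101226463), stood at 21.8, 24.7 and 25.9 CPM in KO 1, 2 and 3 and at 19.8, 22.1 and 22.9 CPM in controls 1, 2 and 3. The groups overlapped, KO 3 being the highest library and control 1 the lowest. On the log2 scale Ezh1 differed by 0.15 in KO over control, with an SE of 0.10 and an edgeR adjusted p of 0.769. The value was 0.094 without KO 3, 0.096 without control 1 and 0.016 with the ribosomal RNA locus as a covariate. Control 1 also had the largest acinar share of counts, 42.2%. With an acinar score, the mean log2 CPM of the acinar markers, as a covariate, Ezh1 stood at 0.11 (SE 0.09, edgeR adjusted p = 0.849). The part of the acinar share in the low value of control 1 was not tested further.

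Ezh2, the methyltransferase typical of dividing cells (ENSMUSG00000029687.16, chromosome 6, 47530139 to 47595341), was covered by 79, 40 and 61 counts in KO 1, 2 and 3 and by 39, 60 and 77 in controls 1, 2 and 3. Scaled to library size these were 3.16, 2.50 and 2.32 CPM in KO and 3.13, 3.50 and 2.54 CPM in controls. KO 1 lay within the range of the controls, and KO 2 and 3 lay just below the lowest of them. Its fitted log2 fold change was -0.18, with an SE of 0.22 and an adjusted p of 0.861, and the 95% interval ran from 0.626 to 1.24-fold. With 1 library left out the value of Ezh2 ran from -0.33 without KO 1 to -0.069 without control 2. With the ribosomal RNA locus as a covariate it was 0.15, with the opposite sign.

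Per length, Ezh2 stood below Ezh1 in all 6 libraries. The log2 ratio of Ezh2 to Ezh1 in counts per kb of exon was -2.63, -3.15 and -3.32 in KO 1, 2 and 3 and -2.51, -2.51 and -3.02 in controls 1, 2 and 3, that is, Ezh1 was 5.68 to 10.02 times as abundant. This ratio needs no library scaling. Its mean was -3.03 ± 0.36 in KO and -2.68 ± 0.30 in controls (SD, n = 3 each). The difference of -0.36 gave a two-sided p of 0.2 in an exact permutation test, which cannot go below 0.1 with 3 against 3 libraries. The ratio of control 3 lay among those of the KO libraries.

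The genes whose profile over the 6 libraries was nearest to that of Ezh2 were Higd1a, a mitochondrial stress protein, Zfp946, a zinc finger gene, and Mcm4, a subunit of the replicative helicase. Likeness was measured as the root mean square difference of log2 CPM centred on each gene's mean, which was 0.04 for all 3, while Ezh2 itself ranged over 0.57 on that scale. The measure describes these 6 libraries, and the 3 genes were picked from 14212.

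The other core subunits had slightly lower values in KO. Eed, which binds trimethylated lysine 27 of histone H3 and stimulates the enzyme (ENSMUSG00000030619.10, chromosome 7, 89954654 to 89980983), stood at 11.3, 9.73 and 8.68 CPM in KO 1, 2 and 3 and at 13.1, 11.4 and 12.1 CPM in controls 1, 2 and 3. The groups did not overlap, though KO 1 (11.30) and control 2 (11.36) almost met. Eed thus had a fitted log2 difference of -0.30 (SE 0.13, unadjusted p = 0.0493, adjusted p = 0.675). With the ribosomal RNA locus as a covariate it was -0.11. With 1 library left out the value of Eed ran from -0.41 without KO 1 (edgeR unadjusted p = 0.0190) to -0.20 without KO 3 (edgeR unadjusted p = 0.151). At its start Eed overlaps E230029C05Rik on the other strand, which had at most 7 counts in a library against at least 156 for Eed, and the strand setting of the counting is not given in the sources used here.

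Suz12, the subunit that holds the core together (ENSMUSG00000017548.15, chromosome 11, 79993106 to 80034123), stood at 27.7, 27.1 and 29.1 CPM in KO 1, 2 and 3 and at 31.0, 29.7 and 29.9 CPM in controls 1, 2 and 3. The groups did not overlap, and the fitted log2 difference was -0.11 (SE 0.08, adjusted p = 0.788). Its 95% interval, 0.815 to 1.05-fold, was narrower than that of Ezh2, which had 356 counts in all against 3693 for Suz12. The histone-binding core subunits Rbbp4 and Rbbp7 had log2 differences of -0.03 (adjusted p = 0.953) and -0.06 (adjusted p = 0.906). Of the 6 tested core genes 5 had negative values, with a median of -0.08 beside -0.01 over all tested genes, and 0 passed the test.

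Jarid2, the accessory subunit that recruits PRC2 and tunes its activity (ENSMUSG00000038518.15, chromosome 13, 44729474 to 44921643), was counted 447, 300 and 565 times in KO 1, 2 and 3 and 183, 224 and 445 in controls 1, 2 and 3. Scaled, these were 17.9, 18.7 and 21.5 CPM in KO and 14.7, 13.0 and 14.7 CPM in controls. The lowest KO library was above the highest control, and KO 3 was the highest of all. Jarid2 averaged 19.4 ± 1.88 CPM in KO and 14.1 ± 0.936 CPM in controls (SD, n = 3 each), which is 0.46 on the log2 scale (SE 0.11, 95% interval 1.16 to 1.63-fold, unadjusted p = 0.00217). It did not pass over all genes (adjusted p = 0.392). At an unadjusted p under 0.05, 4.83% of tested genes were higher in KO.

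The value of Jarid2 was 0.37 without KO 3 and between 0.40 and 0.51 without any other library. With the ribosomal RNA locus as a covariate it was 0.27 (SE 0.17, adjusted p = 1.00). Among the 14 alternatives its adjusted p ran from 0.0518, without a filter on low counts, to 1.00. Jarid2 is the one tested member whose exons, 9715 bases in all, fall in the longest of 5 equal length classes of tested genes. Over these classes the median log2 fold change of all tested genes went up with length, at -0.09 in the shortest and 0.10 in the longest. The split was widest in KO 3, where the longest class had a median deviation of 0.20 from the mean of the 6 libraries and the shortest -0.17. In KO 1 and 2 both classes stayed between -0.02 and 0.07. In controls 1, 2 and 3 the longest class stood at -0.07, -0.04 and -0.04. Jarid2 deviated by 0.12, 0.18 and 0.38 in KO 1, 2 and 3 and by -0.17, -0.34 and -0.17 in controls 1, 2 and 3. The part of length in the value of Jarid2 was not tested.

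**Figure D2:**
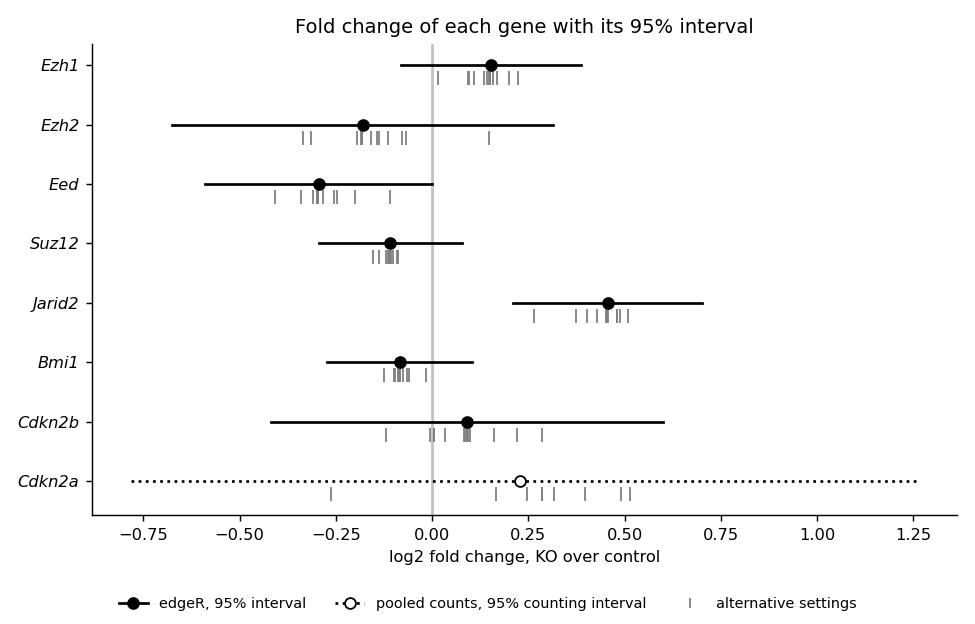
Log2 fold change of KO over control for each gene, with its 95% interval from edgeR (filled) or, for Cdkn2a, the pooled counts with an exact counting interval (open, dotted). Grey ticks are the alternative settings. Jarid2 lies at 0.46 with every tick above 0, while the ticks of Ezh2, Cdkn2b and Cdkn2a fall on both sides of 0.

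The tested accessory subunits of PRC2, Jarid2 included, had positive values. Of 7 listed, 6 were tested and all 6 were positive, with a median of 0.25 beside -0.01 over all tested genes, and 0 passed. Lcor, whose locus also encodes the PRC2 partner PALI1, had 17.3, 21.2 and 35.0 CPM in KO 1, 2 and 3 and 13.9, 17.4 and 17.5 CPM in controls 1, 2 and 3. KO 3 was far above the other libraries. The log2 difference of Lcor was 0.59 (SE 0.23, adjusted p = 0.656), and 0.23 without KO 3. For Aebp2, a zinc finger subunit, it was 0.14 (SE 0.09, adjusted p = 0.752), and 0.095 without KO 3. The groups overlapped in both genes.

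Bmi1, the PCGF subunit of canonical PRC1 and a repressor of Ink4a-Arf (ENSMUSG00000026739.13, chromosome 2, 18677018 to 18686629), varied least of the tested members. It stood at 43.2, 42.4 and 41.9 CPM in KO 1, 2 and 3 and at 42.4, 46.6 and 46.1 CPM in controls 1, 2 and 3. All 3 KO libraries lay close to control 1, the lowest control. Bmi1 had a log2 difference of -0.08 (SE 0.08, adjusted p = 0.831) and a 95% interval of 0.828 to 1.07-fold, and with the ribosomal RNA covariate it stood at -0.017. Its range over the 6 libraries was 0.15 on the log2 scale, against 0.19 for Suz12 and 0.72 for Jarid2.

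Among the other PRC1 genes no value passed the test either. Among 8 RING and PCGF genes 4 were positive and 4 negative, with a median of -0.04, and 0 passed. Pcgf6, of a germline gene repressing complex, stood at a log2 difference of 0.17 (adjusted p = 0.827) and Pcgf5 at -0.11 (adjusted p = 0.837). Pcgf6 stood at 0.26 with the ribosomal RNA covariate, and with 1 library left out Pcgf5 ran from -0.19 without control 1 to -0.057 without control 3. Among 9 CBX and PHC genes the median was 0.06 and 0 passed. Phc3, a scaffold that forms PRC1 clusters, stood at 35.0, 33.0 and 47.3 CPM in KO 1, 2 and 3 and at 27.9, 28.3 and 30.3 CPM in controls 1, 2 and 3. The groups did not overlap, and the log2 difference was 0.42 (SE 0.14, adjusted p = 0.578), or 0.24 without KO 3 and 0.21 with the ribosomal RNA covariate. Scmh1, a homolog of a fly Polycomb protein, differed by 0.12 (adjusted p = 0.796), or by 0.060 without KO 3.

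**Figure D3:**
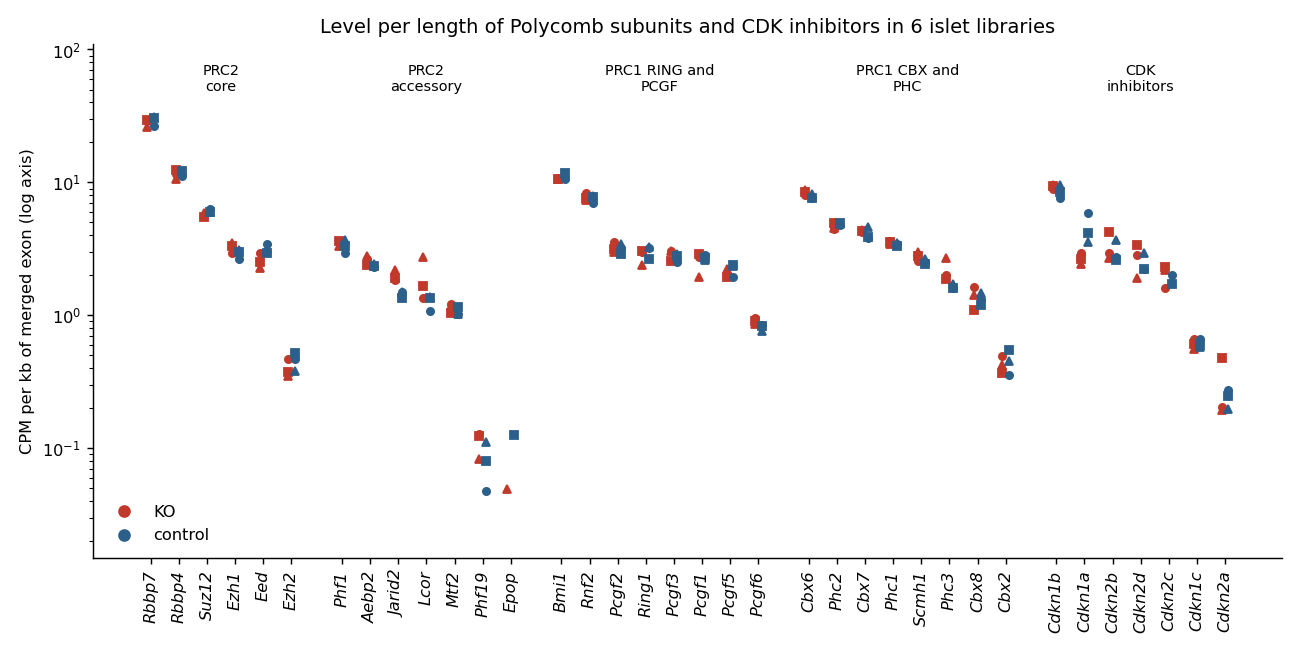
Level of PRC2 and PRC1 subunits and CDK inhibitors, in CPM per kb of merged exon on a log axis, with KO points left of control points. Marker shapes are replicates 1 to 3 and values of 0 are not drawn. Bmi1 is the highest of the PCGF genes at 11.01 CPM per kb, Ezh2 is the lowest core PRC2 gene at 0.428, and Cdkn2a is the lowest CDK inhibitor at 0.266.

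Ordered by level per length, the members ran from Bmi1 to Cdkn2a. Over the 6 libraries Bmi1 averaged 11.01 ± 0.517 CPM per kb and Suz12 5.88 ± 0.291 CPM per kb (SD, n = 6). Cdkn2b followed at 3.16 ± 0.669 CPM per kb, Ezh1 at 3.07 ± 0.293 and Eed at 2.88 ± 0.417, and the ranges of these 3 neighbours overlapped. Jarid2 came next at 1.72 ± 0.326 CPM per kb, then Ezh2 at 0.428 ± 0.0701 and Cdkn2a at 0.266 ± 0.109, of which the last 2 overlapped. Merged exon length counts alternative exons too, so the level of a gene with long alternative exons is understated.

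Cdkn2a was near the limit of detection in both groups (ENSMUSG00000044303.6, chromosome 4, 89274471 to 89294653). It had 6, 9 and 6 counts in KO 1, 2 and 3 and 4, 5 and 7 in controls 1, 2 and 3. Scaled, these were 0.240, 0.561 and 0.228 CPM in KO and 0.321, 0.291 and 0.231 CPM in controls, so that KO 2 stood above all others and KO 1 and 3 stood within or just below the controls. The log2 ratio of the mean CPM was 0.29, with an exact permutation p of 0.9, two-sided, and it was -0.26 without KO 2. The 21 counts in KO and 16 in controls gave a pooled ratio of 1.17 with an exact 95% counting interval of 0.582 to 2.40. Lower and higher levels in KO both lie within that interval, so these counts do not settle a direction. Intervals of this kind cover counting error only.

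Cdkn2b (ENSMUSG00000073802.5, chromosome 4, 89306299 to 89311039) was counted 103, 95 and 98 times in KO 1, 2 and 3 and 48, 62 and 156 in controls 1, 2 and 3. Scaled, these were 4.13, 5.93 and 3.73 CPM in KO and 3.85, 3.61 and 5.14 CPM in controls. KO 2 was the highest library and control 2 the lowest, with the groups overlapping. For Cdkn2b the log2 difference was 0.09 (SE 0.23, adjusted p = 0.940), with a 95% interval of 0.748 to 1.52-fold. Without KO 2 the value was -0.12.

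Per length, Cdkn2b exceeded Cdkn2a in every library, by 8.48 to 17.6 times after adding 0.5 counts to each. The log2 ratio of Cdkn2a to Cdkn2b averaged -3.50 ± 0.36 in KO and -3.53 ± 0.53 in controls (SD, n = 3 each), with a p of 1.0 by exact permutation. KO 2, highest in both genes, was also the library with the lowest fibroblast marker sum. Its marker sums were lowest too for endothelium (234 CPM against 367 to 467 CPM) and macrophages (72.6 CPM against 80.4 to 90.6 CPM). Its beta marker sum was the highest, 147388 CPM against 95790 to 125015 CPM. The part of these differences in the values of Cdkn2a and Cdkn2b was not tested.

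The chromosomal surroundings of the locus gave no value past the threshold. Besides the 2 members, 66 genes lay within 1 Mb of Cdkn2a, and 54 of them had 0 counts in every library. Among these were all 18 entries whose symbol begins with Ifn, which are type I interferon genes and the pseudogene Ifna-ps1. Of the 6 with at least 10 counts in total, 3 were tested. Mtap, a methionine salvage enzyme whose start lies 158 kb from that of Cdkn2a, stood at 15.6 ± 0.952 CPM in KO and 16.1 ± 1.26 CPM in controls (SD, n = 3 each), a log2 difference of -0.05 (adjusted p = 0.933). Klhl9, a substrate adaptor of a ubiquitin ligase, stood at 71.3 ± 3.42 CPM in KO and 62.8 ± 4.93 CPM in controls, without overlap, a difference of 0.18 (SE 0.09, adjusted p = 0.729). Hacd4, a fatty acid elongation enzyme, differed by -0.02 (adjusted p = 0.991). Dmrta1, on the far side of Cdkn2b, had 30 counts in all 6 libraries, and the long noncoding AL805899.1 and the pseudogene Mrpl48-ps had 11 and 10.

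**Figure D4:**
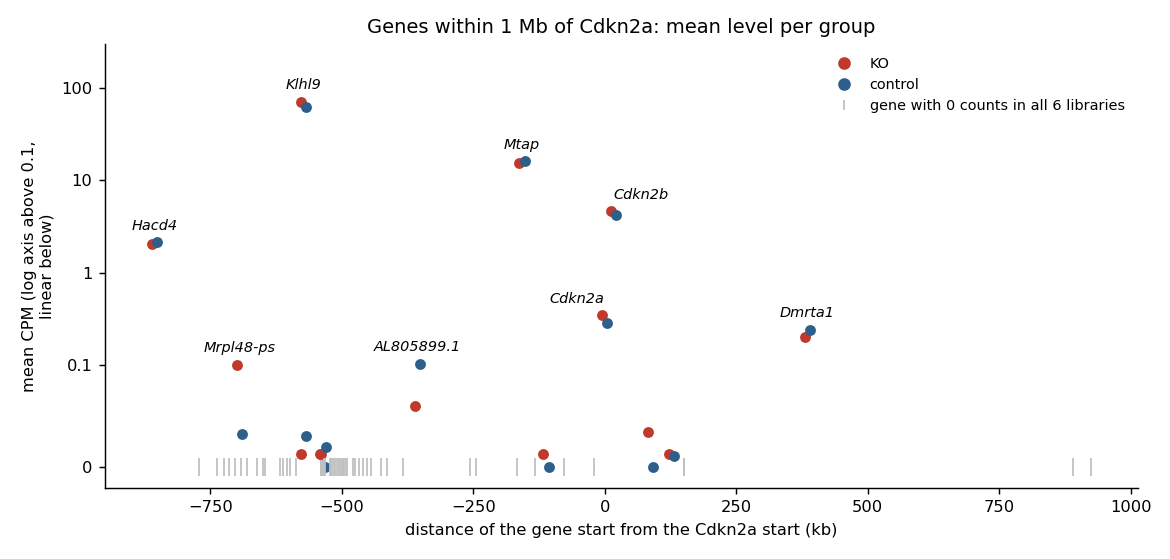
Mean CPM of genes within 1 Mb of Cdkn2a in KO and control libraries (n = 3 each), against the distance of each gene's start from the outermost Cdkn2a start, with the 2 points of a gene drawn 10 kb apart for clarity. The vertical axis is logarithmic above 0.1 CPM and linear below. Grey ticks are the 54 genes with 0 counts. Cdkn2a stands below its neighbours Cdkn2b and Mtap in both groups.

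Among the other CDK inhibitors, Cdkn1a, which encodes the p53 target p21, had the smallest p. It stood at 10.5, 9.42 and 8.68 CPM in KO 1, 2 and 3 and at 21.1, 14.7 and 12.7 CPM in controls 1, 2 and 3, without overlap. Its log2 difference was -0.74 (SE 0.18, adjusted p = 0.427). It passed without a filter on low counts (SE 0.14, adjusted p = 5.84e-05), a setting in which 1.14% of 26297 genes passed. Control 1, the highest, was also the library with the largest acinar share, and without it the value was -0.52. With the acinar score as a covariate Cdkn1a stood at -0.60 (SE 0.12, edgeR adjusted p = 0.136). Cdkn1b, which encodes p27, stood at 0.10 (adjusted p = 0.834) and Cdkn2c, which encodes p18Ink4c, at 0.15 (adjusted p = 0.858). With 1 library left out Cdkn1b ran from 0.028 without control 1 to 0.19 without control 3, and Cdkn2c from 0.059 without KO 2 to 0.30 without KO 1. Of the 7 listed inhibitors 6 were tested, 5 with positive values, and 0 passed.

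In the E2F and Rb family, upstream of Ezh2, 0 of 11 tested genes passed, and the median was -0.03. E2f7, a repressive E2F, stood at a log2 difference of 0.71 (SE 0.41, adjusted p = 0.744), from 70 counts in all. Tfdp1 and Tfdp2, the dimerization partners of E2F, stood at -0.14 (adjusted p = 0.770) and 0.14 (adjusted p = 0.787), or without KO 3 at -0.085 and 0.084. E2f7 stood at 1.38 with the ribosomal RNA covariate. Among 11 tested genes of Ink4a-Arf regulation and of the Arf and p53 pathway, the median was -0.05 and 0 passed. Mdm4, an inhibitor of p53, stood at 0.25 (SE 0.12, adjusted p = 0.719), Npm1, a nucleolar partner of p19Arf, at -0.18 (adjusted p = 0.755) and Zbtb7a, a repressor of Arf, at 0.10 (adjusted p = 0.830). Without KO 3 Mdm4 stood at 0.13, Npm1 at -0.078 and Zbtb7a at 0.026, and with the ribosomal RNA covariate Mdm4 stood at 0.047. Hmga2, which represses Ink4a-Arf in stem cells, had 0 counts in every library and Lin28b, which raises Hmga2 by blocking let-7, had 1 count in all.

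Proteins that oppose Polycomb were examined as well. Menin and the MLL methyltransferases, known to maintain expression of CDK inhibitors in mouse islets, had positive values in 7 of 9 genes, with a median of 0.10, and 0 passed. Kmt2d stood at 61.6, 90.2 and 144 CPM in KO 1, 2 and 3 and at 59.0, 57.9 and 59.9 CPM in controls 1, 2 and 3. KO 3 was far above the others, and KO 1 was close to the controls. For Kmt2d the log2 difference was 0.75 (SE 0.25, adjusted p = 0.591), or 0.36 without KO 3 and -0.12 with the ribosomal RNA locus as a covariate. Kmt2a, which encodes MLL1, stood at 0.49 (SE 0.16, adjusted p = 0.591) and Kmt2c at 0.41 (SE 0.17, adjusted p = 0.671). Without KO 3 Kmt2a stood at 0.25 and Kmt2c at 0.17, and with the ribosomal RNA covariate they stood at 0.22 and 0.020. Without a filter on low counts, where 1.14% of 26297 genes passed, so did Kmt2d, Kmt2a and Lcor (edgeR adjusted p = 7.27e-07, 0.00955 and 8.17e-04). Their SE in that setting was 0.12, 0.12 and 0.13, against 0.25, 0.16 and 0.23 in the main fit. The spread between libraries, such as 61.6 to 144 CPM for Kmt2d in KO, thus weighed less there.

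The lists of histone demethylases with deubiquitinase subunits and of variant PRC1 also held 0 genes past the threshold. Asxl1, a cofactor of the H2A deubiquitinase BAP1, stood at a log2 difference of 0.35 (SE 0.11, adjusted p = 0.565), its paralog Asxl2 at 0.21 (adjusted p = 0.674) and Mbd5 at 0.27 (adjusted p = 0.674). With the ribosomal RNA covariate Asxl1 stood at 0.093 and Asxl2 at 0.068, and without KO 3 Mbd5 stood at 0.17. In these 7 tested genes the median was 0.09 and 0 passed. In variant PRC1, 8 of 9 values were positive, with a median of 0.07 and 0 past the threshold. Mga, a subunit of the complex with PCGF6, stood at 0.37 (SE 0.15, adjusted p = 0.671), Bcorl1 at 0.32 (adjusted p = 0.674) and E2f6 at -0.20 (adjusted p = 0.744). Without KO 3 these values were 0.19 for Mga, 0.17 for Bcorl1 and -0.12 for E2f6. With the ribosomal RNA covariate they were 0.15, 0.18 and -0.11, and without control 3 E2f6 stood at -0.12.

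Over the 7 lists of Polycomb, demethylase and Menin complex genes, 54 of 56 genes were tested. At an unadjusted p under 0.05, 11 were higher and 2 lower in KO, where all tested genes gave 4.83% and 2.54%. These lists hold long genes, 22 of the 54 falling in the longest class of all tested genes. The 22 had 20 positive values with a median of 0.13, beside 2028 positive of 2843 and a median of 0.10 for all tested genes of that class. Without KO 3 the 22 had a median of 0.11, and the 2826 genes of that class tested in that setting 0.03. The 32 shorter genes of the lists had 18 positive values and a median of 0.02. The part of length in these values was not tested further.

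**Figure D5:**
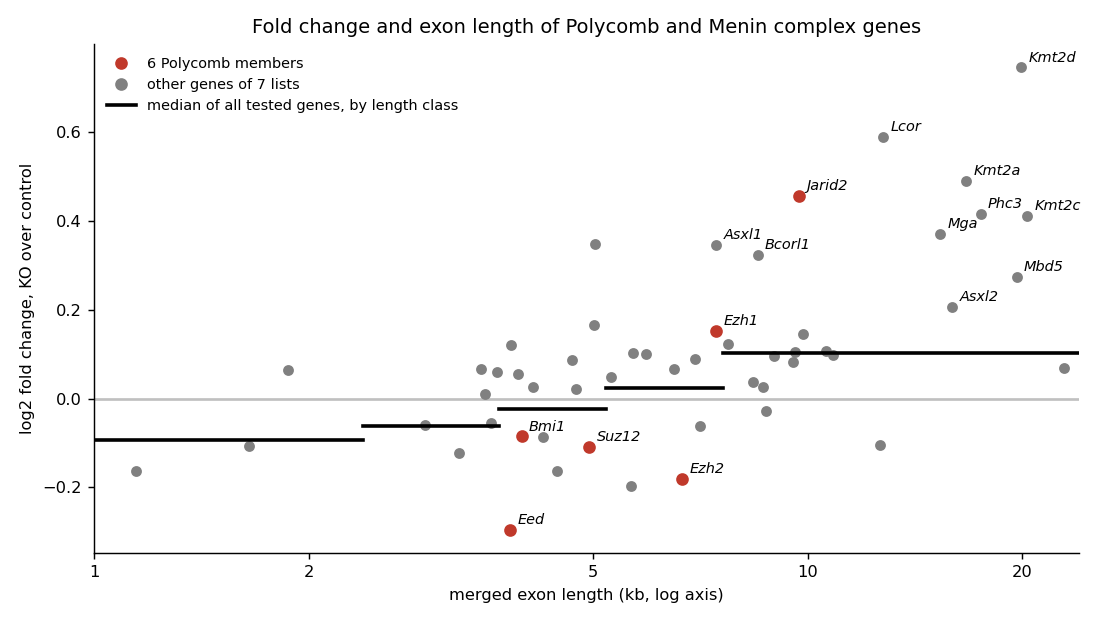
Log2 fold change of KO over control against merged exon length (log axis) for tested genes of 7 Polycomb, demethylase and Menin complex lists. The 6 Polycomb members are in red, and black bars are medians of all tested genes in each of 5 length classes, from -0.09 to 0.10. Names mark the members and the plotted genes with an unadjusted p under 0.05, and the largest values are those of long genes such as Kmt2d.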

How the data were processed

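Per the labels' protocols, an mRNA HyperPrep kit was used on islet RNA. The authors deposited raw read counts per gene for 6 libraries, and the submitters' processing notes name GRCm38.p6 and mm10 as builds and STAR 2.7.9 and featureCounts 2.0.0 as tools. Neither these notes nor the labels state an annotation release, a strand setting or how multiply mapped reads were handled. The deposited table also gives the merged exon length of each gene in bases. Of 55401 identifiers, 55141 received a symbol.

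Counts were tested with edgeR 4.0.16 (glmQLFit and glmQLFTest, R 4.3.3, TMM, filterByExpr at its defaults of 10 for min.count and 15 for min.total.count), with genotype as the only term, Benjamini-Hochberg adjustment over all 14212 tested genes and a threshold of 0.05, two-sided. Standard errors and 95% intervals came from the quasi-likelihood F statistic. Ratios and Cdkn2a were compared by exact two-sided permutation over libraries, and the Cdkn2a counting interval is exact binomial (SciPy 1.17.1). The common biological coefficient of variation was 0.140. Libraries were compared by chi-square, the closest pair standing at 14.3 per degree of freedom, so none was counted as a duplicate. The script was tested on simulated data.

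The members and the 12 gene lists were chosen with earlier results of these data known. Named genes are the 8 members, Pdgfra, up to 3 genes of smallest p per list, the 3 nearest profiles to Ezh2, and genes near Cdkn2a with at least 10 counts. One list gene is counted but not reported here by name. Hmga2, Lin28b, Rbbp4 and Rbbp7 were named after their values were seen. The alternatives were RLE normalization, no filter, the replicate number as a block, an acinar or ribosomal RNA covariate, removal of those genes, DESeq2 1.42.0, limma-voom 3.58.1 and each library left out.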

Additional observations from a re-analysis of the deposited data

How the results depend on the processing

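No tested member passed an adjusted p of 0.05 under any of the 14 alternatives. Of 107 member values, 103 kept the sign of the main test, and Ezh1, Eed, Suz12, Jarid2 and Bmi1 kept it throughout. The exceptions were Ezh2 with the ribosomal RNA covariate (0.15), Cdkn2b, which ran from -0.12 to 0.29 with 1 library left out, and Cdkn2a, from -0.26 to 0.51. With 1 library left out the group difference in the log2 ratio of Cdkn2a to Cdkn2b ran from -0.28 to 0.20 and that of Ezh2 to Ezh1 from -0.56 to -0.21. Of the other named genes, the ribosomal RNA covariate reversed Lcor (-0.0096), Scmh1 (-0.046), Kmt2d (-0.12), Cdkn2c (-0.30), Tfdp2 (-0.028), Npm1 (3.24e-04), Zbtb7a (-0.045) and Hoxa5 (0.36). With 1 library left out Hoxa5 ran from -0.51 to 0.14 and Hoxd8 from -0.25 to 0.45. The cause was not tested. The level of the ribosomal RNA locus went largely with genotype, at 52225 to 175943 CPM in KO and 31435 to 52851 CPM in controls. Values with this covariate therefore cannot fully separate it from genotype. They also carry larger errors, as for Ezh1, with an SE of 0.17 against 0.10 in the main fit. The 10 genes past the threshold became 300 without the filter, 44 with the acinar covariate, 0 with the ribosomal RNA covariate (214 at an unadjusted p under 0.05), 48 with DESeq2, 6 with limma-voom and between 2 and 6 when a library was omitted, which leaves 5 samples. With the replicate block the count was 36 (11 higher and 25 lower). Same-numbered libraries deviated together with correlations of 0.16, -0.16 and 0.14, and KO 2 correlated best with control 1, so the numbers do not show a pairing. For Cdkn2a, under the filter, the block, the covariates, DESeq2 and limma-voom were not run. Depth limits Cdkn2a, which had 37 counts in all.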

Other observations

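Most of the listed developmental genes that Polycomb is known to silence had counts near 0 in both groups. Low counts alone do not show silencing by Polycomb, which was not tested. Of 67 listed, mostly Hox genes and transcription factors of other lineages, 37 had 0 counts in every library and 4 passed the filter on low counts. None of the 4 passed the test over all genes. Hoxb4 stood at 0.612 ± 0.263 CPM in KO and 0.454 ± 0.257 CPM in controls (SD, n = 3 each), 0.39 on the log2 scale (SE 0.49, edgeR adjusted p = 0.866). Hoxa5 had a value of -0.28 (SE 0.46, edgeR adjusted p = 0.902) and Hoxd8 of 0.20 (SE 0.44, edgeR adjusted p = 0.931). With 1 library left out Hoxb4 ran from 0.096 without control 1 to 0.64 without KO 2, and with the ribosomal RNA covariate Hoxb4 stood at 0.99 and Hoxd8 at 1.15. The untested genes had at most 20 counts in any library.

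Of 25 proliferation genes, 22 were tested and 0 passed. There were 15 negative and 7 positive values, from -0.87 to 0.34, with a median of -0.22 beside -0.01 over all tested genes. At an edgeR unadjusted p under 0.05, 5 were lower and 0 higher in KO, where all tested genes gave 2.54% and 4.83%. KO lay below every control in 7 of the 22 and above in 0, beside 5.94% and 7.94% of all tested genes. Summed over the 25 genes, which weighs abundant genes most, the groups overlapped, at 841, 1010 and 1035 CPM in KO 1, 2 and 3. The sums in controls 1, 2 and 3 were 969, 978 and 1044 CPM (exact permutation p = 0.8). The genes of smallest p follow. The G1 cyclin gene Ccnd1 stood at 77.3, 89.9 and 84.2 CPM in KO 1, 2 and 3 and at 104, 111 and 109 CPM in controls 1, 2 and 3, without overlap (log2 fold change -0.36, SE 0.09, edgeR adjusted p = 0.460). Tyms, of thymidylate synthesis, had a value of -0.51 (SE 0.18, edgeR adjusted p = 0.600), or -0.22 with the ribosomal RNA covariate, and the S phase cyclin gene Ccna2 of -0.87 (SE 0.32, edgeR adjusted p = 0.614).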
